A study of Mus musculus with 17 samples.

Results

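Transcripts of 8 genes of zinc handling were followed in infarcted mouse hearts: the metallothioneins Mt1, Mt2 and Mt3, the zinc exporter Slc30a1, the importers Slc39a1, Slc39a8 and Slc39a14, and the zinc-sensing transcription factor Mtf1. They were chosen by name from the 31647 features of the count table, and all 8 had a row of their own. The libraries came from hearts of male wild-type C57BL/6 J mice aged 8 to 11 weeks, taken 5 days after surgery. In the infarct zone group (n = 9) the left anterior descending artery was permanently tied off and RNA came from the dissected infarct, whereas in the sham group (n = 8) the operation left the artery open and RNA came from the left ventricle. Ligation without reperfusion limits the model, and the sham tissue was not matched to the infarct by region. Massive analysis of cDNA ends (MACE) was used, which counts 1 tag near the 3' end of each transcript molecule and removes PCR duplicates by molecular identifiers, and each library held 1237675 to 4738307 counts.

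Metallothioneins are small cytosolic proteins, rich in cysteine, that bind zinc and copper and take up oxidants. Free zinc in the cell is sensed by MTF1, which moves to the nucleus and binds metal response elements in the promoters of Mt1, Mt2 and Slc30a1. Glucocorticoids and interleukin-6 signalling also induce Mt1 and Mt2. Exporters of the SLC30 (ZnT) family lower cytosolic zinc, and SLC39 (ZIP) importers raise it. ZIP8 and ZIP14, the products of Slc39a8 and Slc39a14, also carry manganese and iron.

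The 3 metallothionein genes lie on the plus strand of chromosome 8 in GRCm38, the build called mm10. In GENCODE vM21, Mt3 spans 94152607 to 94154146, Mt2 spans 94172664 to 94173568 and Mt1 spans 94179082 to 94180327, and Mt2 and Mt1 are 5513 bp apart. The other genes are protein coding too: Slc30a1 on chromosome 1 (191906767 to 191913247), Slc39a1 (90248172 to 90253612) and Slc39a8 (135825279 to 135888572) on chromosome 3, Slc39a14 on the minus strand of chromosome 14 (70303469 to 70351425), and Mtf1 on chromosome 4 (124802104 to 124849800).

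Promoter windows are shown for Mt1, Mt2 and Slc30a1 because these genes carry the metal response elements of the MTF1 pathway and their transcripts did not move alike. Each window is RefSeq sequence of GRCm38.p6 that runs from 250 bases before to 50 bases after the annotated start, plus strand, 5' to 3', at chr8:94178839-94179138 for Mt1, chr8:94172368-94172667 for Mt2 and chr1:191906531-191906830 for Slc30a1. Capitals mark the core of a metal response element, searched as TGCACNC or TGCGCNC on both strands, so that a core on the other strand reads as its reverse complement.
Mt1: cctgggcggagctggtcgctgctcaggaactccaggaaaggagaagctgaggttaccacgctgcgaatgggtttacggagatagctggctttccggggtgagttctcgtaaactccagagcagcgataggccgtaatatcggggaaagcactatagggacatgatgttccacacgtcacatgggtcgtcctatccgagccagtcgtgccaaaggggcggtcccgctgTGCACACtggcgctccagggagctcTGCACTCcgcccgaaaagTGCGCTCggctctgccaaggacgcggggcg
Mt2: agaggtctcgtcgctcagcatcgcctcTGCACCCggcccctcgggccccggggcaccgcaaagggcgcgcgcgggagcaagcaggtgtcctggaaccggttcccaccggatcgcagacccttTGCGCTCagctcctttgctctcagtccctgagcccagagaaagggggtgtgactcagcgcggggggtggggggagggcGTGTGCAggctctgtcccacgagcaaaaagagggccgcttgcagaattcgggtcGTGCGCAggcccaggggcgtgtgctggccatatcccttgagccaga
Slc30a1: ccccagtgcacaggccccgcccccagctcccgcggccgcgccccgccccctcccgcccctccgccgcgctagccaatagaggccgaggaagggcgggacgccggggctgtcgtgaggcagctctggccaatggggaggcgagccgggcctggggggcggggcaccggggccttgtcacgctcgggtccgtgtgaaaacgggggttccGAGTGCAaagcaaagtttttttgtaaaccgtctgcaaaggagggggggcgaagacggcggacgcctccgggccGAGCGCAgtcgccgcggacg

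The Mt2 window held 4 cores, the Mt1 window 3 and the Slc30a1 window 2. Among 32817 RefSeq promoter windows of the same length, 25.7% held at least 1 core, 7.12% at least 2, 1.97% at least 3 and 0.518% at least 4. The Mt3 window held 1, and those of Slc39a1 and Mtf1 held 0. Slc39a8 has a window at each of 2 starts, with 0 and 1. RefSeq and GENCODE starts differ for several of these genes, and a match of letters is a description and not a measured binding site. Elements outside the windows were not counted, and whether the annotated starts are those used in these hearts was not tested. The antioxidant response element core TGACNNNGC, which overlapped none of the marked cores, occurred 1 time in the windows of Mt2, Slc30a1 and Slc39a1 and in 1 of the Slc39a8 windows, against at least 1 in 12.4% of all windows.

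**Figure D1:**
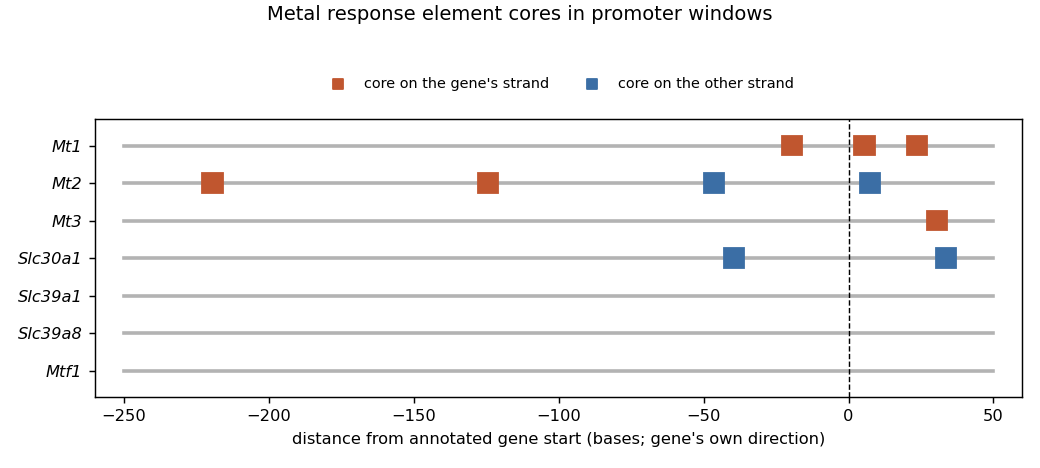
Position of metal response element cores in the promoter windows of 7 genes (first window for Slc39a8), as distance in bases from the annotated start, with boxes coloured by strand. The 3 cores of Mt1 lie close to the annotated start, whereas the 4 of Mt2 are spread over the window.

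Differential expression was tested in edgeR across 12301 genes that passed a filter on low counts. Of these, 69.5% differed between infarct zone and sham at an adjusted p under 0.05 (36.3% higher and 33.1% lower after infarction), so that a change in an individual gene was common. Of the 8 genes, 6 passed the filter: Mt2 and Slc39a1 were higher, Mt1 was lower, and Slc30a1, Slc39a14 and Mtf1 did not pass the threshold. Mt3 and Slc39a8 had too few counts for the filter. Levels are given as CPM, the counts of a gene relative to its library size after TMM scaling, which sets the bulk of genes near no change. With library sizes left at total counts, the median log2 fold change of all genes moved from 0.05 to 1.14, and among the 8 genes the direction of Mt1, Slc30a1 and Mtf1 turned.

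Both groups were heart by their markers, with very different make-up. Of the 8 cardiomyocyte markers, 8 were lower in the infarct zone, and their summed level was 50755 to 66158 CPM in sham and 1773 to 20815 CPM in the infarct zone. Of the 7 macrophage markers, 7 were higher (199 to 272 CPM in sham, 1197 to 3172 CPM in the infarct zone), as were 6 of the 7 fibroblast markers (1446 to 2748 CPM and 10704 to 18731 CPM). By log2 fold change (edgeR), cardiomyocyte markers ran from -4.19 (Tnni3) to -2.20 (Tnnt2), macrophage markers from 1.15 (Mrc1) to 5.42 (Lgals3), and fibroblast markers from 0.04 (Dcn, adjusted p = 0.840) to 4.002 (Col1a1). Infarct zone replicate 1 stood apart: it held the 20815 CPM of cardiomyocyte transcripts, against at most 4426 CPM in the other 8, and 19.4% of its counts were mitochondrially encoded, against 4.22% to 6.78% in the others and 22.9% to 32.4% in sham. In bulk tissue, a change in the number of cells of a type and a change in RNA per cell cannot be told apart, and the part of these shifts in the results that follow was not tested.

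Mt1 encodes the metallothionein with the larger number of counts in these hearts. In sham it ranged from 238 to 386 CPM with a median of 313 CPM, and in the infarct zone from 110 to 340 CPM with a median of 198 CPM. The ranges overlapped, and 6 of the 9 infarct hearts had less than any sham heart. The means were 312 ± 43.2 CPM (SD, n = 8) and 212 ± 72.7 CPM (SD, n = 9), a log2 fold change of -0.56 (SE 0.18, 95% interval -0.92 to -0.19, adjusted p = 0.00755, edgeR). The highest infarct zone value, 340 CPM, belonged to replicate 1, the library with most cardiomyocyte transcripts, and without it the infarct zone mean was 196 ± 58.4 CPM. On total counts alone the log2 fold change of Mt1 was 0.50 (adjusted p = 0.00479, edgeR), which is -0.64 relative to the median of all genes under that scaling. The median moves with the scaling, so the relative value cannot choose between scalings.

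Mt2, its neighbour on the chromosome and a protein of much the same kind, moved the other way on this scaling. In sham it ranged from 21.0 to 69.7 CPM with a median of 40.4 CPM, and in the infarct zone from 66.1 to 190 CPM with a median of 91.2 CPM. Of the 9 infarct zone libraries, 8 exceeded every sham library, and replicate 2, at 66.1 CPM, fell just under the highest sham value. The means were 41.9 ± 13.3 CPM (SD, n = 8) and 101 ± 37.6 CPM (SD, n = 9), a log2 fold change of 1.28 (SE 0.21, 95% interval 0.85 to 1.70, adjusted p = 7.69e-06, edgeR), or 2.42-fold. Neutrophil markers, with 4 of 4 tested genes higher, rose from 5.00 to 12.3 CPM in sham to 15.9 to 220 CPM in the infarct zone (log2 fold changes of 2.93 for S100a9 to 5.17 for Csf3r), where the defining marker Ly6g reached no more than 1 count in any library. The part of neutrophils and macrophages in the Mt2 level was not tested.

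**Figure D2:**
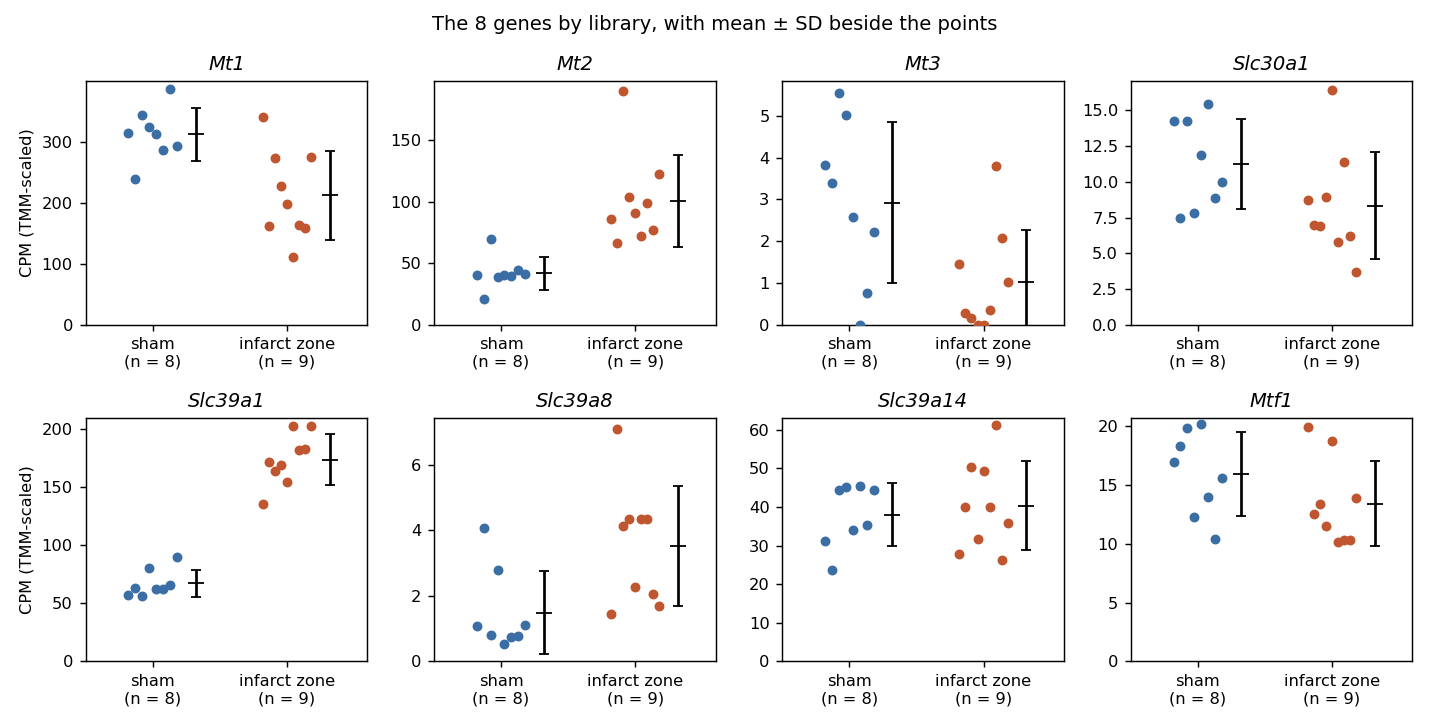
Level of each of the 8 genes in every library (CPM on TMM-scaled library sizes, linear axis from 0), with sham in blue, infarct zone in orange and the mean ± SD beside the points. Slc39a1 separates the groups fully, Mt2 nearly so, and Mt1 is lower with overlap (higher on total counts alone).

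The balance within the pair was shifted in each infarct heart. Of the Mt1 and Mt2 counts together, Mt2 made up 8.12% to 16.9% in sham (mean 11.7 ± 2.49%, SD, n = 8) against 20.2% to 41.1% after infarction (mean 32.6 ± 6.31%, SD, n = 9). The groups did not overlap, and the infarct zone library nearest to sham was replicate 1. How often the shares of other gene pairs separate as fully was not counted. As a log2 ratio of Mt2 to Mt1 the difference was 1.86, or 3.64-fold (exact two-sided permutation test over 24310 splits, p = 8.23e-05, 1.23e-04 after adjustment over 3 ratios). Both genes are read in the same library, so this ratio does not depend on the scaling between libraries. It assumes that the 3' tags of both transcripts are captured alike, which was not tested. Between their last 500 bases, the match was 92 bases at 82.6% identity when searched from Mt1 and 192 bases at 79.2% when searched from Mt2, below the 95% taken as near-identical. The Mt2 end also matches Gm45774, an antisense gene that overlaps it, at 100% over 201 bases. Gm45774 held 4 counts in all libraries against 4023 for Mt2, and without strand their reads cannot be told apart.

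The sum of Mt1 and Mt2 was 354 ± 52.8 CPM (SD, n = 8) in sham against 313 ± 97.2 CPM (SD, n = 9) after infarction. The ranges, 259 to 430 CPM and 182 to 462 CPM, overlapped almost fully, and the difference did not pass the exact two-sided permutation test (log2 difference -0.23, p = 0.220). On total counts alone the sum was higher in the infarct zone by 0.84 on the log2 scale (exact permutation, p = 1.65e-04), so its direction rests on the scaling.

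**Figure D3:**
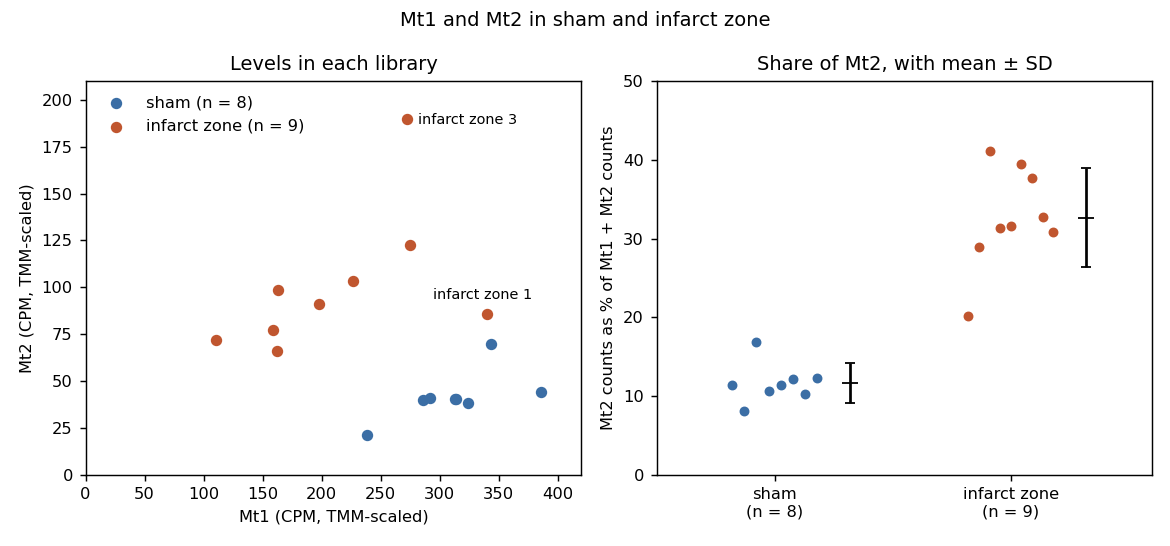
Left, Mt2 against Mt1 level in each library (CPM on TMM-scaled library sizes, 8 sham and 9 infarct zone libraries). Right, Mt2 counts as a percentage of Mt1 and Mt2 counts together, with mean ± SD. Every infarct zone share, from 20.2%, exceeds the highest sham share of 16.9%.

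Within groups, the relation of Mt1 to Mt2 on log2 CPM was positive. Pearson's r was 0.77 in sham (exact permutation, p = 0.0380, adjusted 0.238, n = 8) and Spearman's rho 0.67 (exact permutation, p = 0.0831, adjusted 0.332). In the infarct zone r was 0.59 (exact permutation, p = 0.0886, adjusted 0.238, n = 9) and rho 0.67 (exact permutation, p = 0.0589, adjusted 0.332). Of the 8 relations computed, none passed the threshold after adjustment. The other 6, of Mt2 with Slc39a14, Slc30a1 and Mtf1 in each group, had r from -0.10 to 0.70. The largest of them, Mt2 with Slc39a14 in sham, had rho = 0.07 and went to r = -0.43 without the 2 libraries farthest from the median of Mt2, so it rests on those libraries. Leaving out the 2 libraries farthest from the median of Mt1 gave r = 0.68 in sham and 0.84 in the infarct zone.

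Mt3, known as the metallothionein of the brain, was near the limit of detection. Counts by replicate number were 7, 5, 7, 9, 5, 0, 2 and 4 in sham, against 4, 2, 1, 0, 0, 1, 7, 4 and 3 in the infarct zone. The groups overlapped, with 2.92 ± 1.93 CPM (SD, n = 8) in sham against 1.01 ± 1.26 CPM (SD, n = 9) after infarction. An exact two-sided permutation test gave p = 0.0506, while a fit without the count filter gave a log2 fold change of -1.71 (adjusted p = 0.0239, edgeR), so the call rests on the test used. Mt4, the metallothionein of stratified epithelia, had no count in any library.

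Slc30a1 encodes ZnT1, the zinc exporter of the plasma membrane and a further MTF1 target. It ranged from 7.47 to 15.4 CPM in sham (median 10.95 CPM) and from 3.72 to 16.4 CPM in the infarct zone (median 6.96 CPM). The ranges overlapped, 5 of 9 infarct hearts had less than any sham heart, and replicate 5 had the highest value of all. The log2 fold change of -0.46 (SE 0.24, 95% interval -0.96 to 0.04) did not pass the threshold (adjusted p = 0.0933, edgeR). Without infarct zone replicate 5 it was -0.59 and passed (adjusted p = 0.0206, edgeR). On total counts alone it was 0.62 and passed in the other direction (adjusted p = 0.0233, edgeR).

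Mt2 and Slc30a1 share the MTF1 pathway, and their ratio differed between the groups. The log2 ratio of Mt2 to Slc30a1 was 1.83 ± 0.40 (SD, n = 8) in sham against 3.58 ± 0.79 (SD, n = 9) after infarction. All 9 infarct zone libraries exceeded every sham library, and the difference of 1.75 on the log2 scale passed the exact two-sided permutation test (p = 8.23e-05, 1.23e-04 after adjustment over 3 ratios). The rise of Mt2 enters both this ratio and that of Mt2 to Mt1, so they are not independent results. How often ratios of other gene pairs separate as fully was not counted.

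Mtf1 itself was measured at 10.4 to 20.2 CPM in sham (median 16.3 CPM) and 10.2 to 19.9 CPM in the infarct zone (median 12.5 CPM). The ranges overlapped, with 3 of 9 infarct hearts below all sham hearts, and the difference of -0.24 on the log2 scale (SE 0.18, 95% interval -0.61 to 0.12) did not pass the threshold (adjusted p = 0.229, edgeR). On total counts alone the log2 fold change of Mtf1 was 0.82 and passed as higher (adjusted p = 1.25e-04, edgeR). The 3' end of Mtf1 overlaps that of 1110065P20Rik on the other strand, which held 1263 counts over all libraries against 643 for Mtf1. It was not stated whether the counting used strand, and without strand the reads of the 2 genes cannot be told apart.

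Of the importers Slc39a1, Slc39a8 and Slc39a14, only Slc39a1 passed both the count filter and the threshold. Its product ZIP1 is a widely expressed zinc importer of the plasma membrane. It ranged from 56.2 to 90.0 CPM in sham (median 62.8 CPM) and from 136 to 202 CPM in the infarct zone (median 171 CPM). The lowest infarct zone library, again replicate 1, lay above the highest sham library, a full separation that held in the same direction for 16.6% of all genes tested. The means were 67.1 ± 11.8 CPM (SD, n = 8) and 174 ± 21.6 CPM (SD, n = 9), a log2 fold change of 1.37 (SE 0.12, 95% interval 1.12 to 1.61, adjusted p = 6.81e-10, edgeR), or 2.58-fold. Fibroblast and macrophage markers moved with it, and their part was not tested.

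Slc39a14 encodes ZIP14, an importer induced in liver by interleukin-6. It ranged from 23.8 to 45.6 CPM in sham (median 39.9 CPM) and from 26.3 to 61.3 CPM in the infarct zone (median 39.9 CPM). The medians were nearly equal, 3 infarct zone libraries exceeded every sham library, and the log2 fold change of 0.08 (SE 0.17) did not pass the threshold (adjusted p = 0.673, edgeR). Its 95% interval, -0.26 to 0.43, leaves room for a modest change in either direction on this scaling. On total counts alone the log2 fold change was 1.18 and passed (adjusted p = 3.48e-06, edgeR), which is 0.04 relative to the median of all genes. Here too the relative value cannot choose between scalings.

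Slc39a8 encodes ZIP8, a zinc and manganese importer. Counts by replicate number were 2, 6, 1, 5, 1, 1, 2 and 2 in sham, against 4, 51, 25, 22, 4, 12, 8, 4 and 5 in the infarct zone. Scaled to library size these were 1.49 ± 1.26 CPM (SD, n = 8) and 3.53 ± 1.82 CPM (SD, n = 9), with 5 of 9 infarct hearts above all sham hearts. The exact two-sided permutation test gave p = 0.00790 (0.0158 after adjustment over both untested genes), and a fit without the count filter gave a log2 fold change of 1.41 (adjusted p = 0.0101, edgeR). The log2 ratio of Slc39a14 to Slc39a8 was lower in the infarct zone by 0.90 (exact two-sided permutation, p = 0.0299, also after adjustment over 3 ratios). It lost its call without sham replicate 3, 5, 6, 7 or 8 and without infarct zone replicate 2 or 4 (differences of -0.85 to -0.78). With a prior count of 5 the difference was -0.24 (p = 0.344, exact permutation, adjusted). After thinning of counts to the smallest library total it was -0.49 (p = 0.221, exact permutation, adjusted).

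The rest of both transporter families was read from a fixed list of 20 genes, of which 18 had a row in the table and 13 were tested. Of these 13, 6 were higher and 2 lower, with a median log2 fold change of 0.52 against 0.05 over all genes tested. Over all genes the shares were 36.3% higher and 33.1% lower. With library sizes at total counts, 11 of the 13 were higher and 0 lower. Slc30a8 and Slc39a7 are not analysed here, and Slc30a3 and Slc39a12 had no count. Slc39a4, the intestinal importer, was at 0 in the 8 sham libraries and at 0 to 9 counts in the infarct zone, where its mean of 0.727 CPM was below the level that 3 counts represent in each sham library, so no fold is given.

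Of the 5 other exporters tested, 3 were higher and 1 lower. Slc30a7, which loads zinc into the Golgi, went from 11.6 ± 2.35 CPM (SD, n = 8) to 27.5 ± 4.21 CPM (SD, n = 9), with every infarct zone library above every sham library (log2 fold change 1.26, adjusted p = 4.83e-08, edgeR). Slc30a5, of the same compartment, rose by 1.02 on the log2 scale (adjusted p = 1.61e-05, edgeR) and Slc30a4 by 0.83 (adjusted p = 0.00315, edgeR). Slc30a6, the partner of Slc30a5 in a heterodimer, had a log2 fold change of 0.52 that did not pass (adjusted p = 0.0909, edgeR). Slc30a9, a mitochondrial zinc carrier, fell from 101 ± 8.28 CPM (SD, n = 8) to 45.0 ± 12.4 CPM (SD, n = 9), with 9 of 9 infarct hearts below all sham hearts (log2 fold change -1.17, adjusted p = 4.59e-08, edgeR). How many of all genes separated fully in this direction is not given here, and 33.1% of genes tested were called lower. Slc30a9 was at -0.12 on total counts alone and did not pass there (adjusted p = 0.319, edgeR).

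Among the other importers, Slc39a11 had the largest fold change, from 2.24 ± 1.09 CPM (SD, n = 8) to 14.8 ± 4.61 CPM (SD, n = 9), a log2 fold change of 2.68 (adjusted p = 9.24e-09, edgeR). Its sham libraries held 1 to 8 counts. Slc39a6 rose by 1.88 on the log2 scale (adjusted p = 3.36e-07, edgeR) and Slc39a13, an importer of the secretory pathway needed in connective tissue, by 1.19 (adjusted p = 9.29e-08, edgeR). Slc39a2 fell by 0.88 (adjusted p = 6.85e-04, edgeR), with 5 of 9 infarct hearts below all sham hearts. Slc39a2 was at 0.21 on total counts alone and did not pass there (adjusted p = 0.378, edgeR). Slc39a3, Slc39a5, Slc39a9 and Slc39a10 did not pass the threshold, with log2 fold changes from -0.21 to 0.34.

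**Figure D4:**
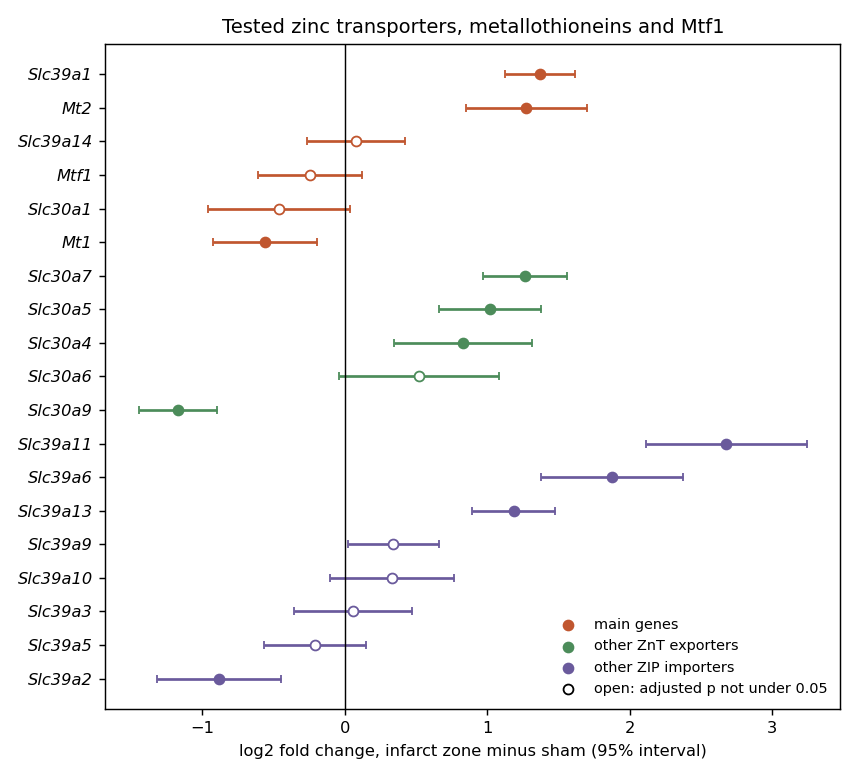
Log2 fold change, infarct zone minus sham, with its 95% interval for the 6 main genes tested (orange), 5 other ZnT exporters (green) and 8 other ZIP importers (purple). Filled points passed an adjusted p under 0.05, and with this TMM scaling Mt2 and Mt1 lie on opposite sides of 0, whereas on total counts alone Mt1 is at 0.50.

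Of 8 other genes linked to MTF1, all tested, 4 were higher and 1 lower, and the median log2 fold change was 0.49. With 69.5% of all genes called (36.3% higher and 33.1% lower), these counts and those of the lists that follow are to be read against that background. On total counts alone 7 were higher and 1 lower. The highest was Csrp1, a LIM domain protein, at 1.80 (adjusted p = 3.32e-09, edgeR), and the lowest was Tfrc, the transferrin receptor, at -2.58 (adjusted p = 5.54e-08, edgeR).

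The list of other known inducers of metallothioneins held genes of glucocorticoid and interleukin-6 signalling and also Nfe2l2. It gave 5 higher and 3 lower of 11 tested and a median of 0.19. Nfe2l2 was among those higher, at 0.31 (adjusted p = 0.0219, edgeR). The same list gave 9 higher and 2 lower on total counts alone, and the glucocorticoid receptor gene Nr3c1 turned from -0.67 to 0.41. The interleukin-6 responsive Socs3 was highest, with a log2 fold change of 2.01 (adjusted p = 6.93e-06, edgeR) and every infarct zone library above every sham library. Glucocorticoid-responsive genes lay on both sides. Zbtb16 was lowest, at -2.12 (adjusted p = 3.32e-06, edgeR), and Klf9 was also lower, at -1.71 (adjusted p = 4.81e-05, edgeR). Fkbp5 was higher, at 1.83 (adjusted p = 1.66e-06, edgeR), while Tsc22d3 and Per1 did not pass.

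Copper handling, the other metal that metallothioneins bind, gave 4 higher and 5 lower genes of 12 tested, with a median of -0.14. The counts were 7 higher and 1 lower, Cox17, on total counts alone. The copper exporter Atp7a was highest at 2.61 (adjusted p = 1.11e-05, edgeR), from 0 to 7 counts in sham, and Cox17, the copper chaperone of mitochondrial cytochrome c oxidase, was lowest at -1.91 (adjusted p = 2.91e-12, edgeR). Of 5 manganese and iron carriers, 2 were higher and 0 lower, with a median of 0.43, and on total counts alone 5 were higher. The highest, Slc11a1, is a metal transporter of phagocytes (log2 fold change 3.69, adjusted p = 1.84e-12, edgeR), and the lowest, Slc25a28, a mitochondrial iron importer, did not pass (-0.28, adjusted p = 0.0703, edgeR).

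The genes whose level followed that of Mt2 most closely were ranked by Pearson's r over the 17 libraries, on log2 CPM with the mean of each group taken off, among 9355 genes whose mean reached 10 CPM. They were Hmgn2 (r = 0.80), Txnl1 (r = 0.76), Il6st (r = 0.75), Lyn (r = 0.72) and Gclm (r = 0.69). The libraries share depth and make-up between genes, so these values describe a likeness and carry no test. Of the 5, Lyn was higher in the infarct zone with a log2 fold change of 1.54 (adjusted p = 1.47e-09, edgeR) and Gclm with 0.69 (adjusted p = 0.00191, edgeR), Txnl1 was lower at -0.43 (adjusted p = 6.76e-04, edgeR), and Hmgn2 and Il6st did not pass.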

How the data were processed

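Hearts of 17 mice were analysed, 8 sham left ventricles and 9 infarct zones, grouped by the treatment in the labels. Per the methods, total RNA was treated with DNase on the column. The authors made 3' end libraries with molecular identifiers, which were trimmed with Cutadapt 4.6, mapped to mm10 and counted with HTSeq. The submitters' notes also name Bowtie2 and DESeq2, and the annotation release and the use of strand were not given in the sources used here. The deposited values are raw counts per gene, not normalized. Gene identifiers were joined to GENCODE vM21, where 31521 matched, and 35 merged features stayed in library sizes without a name.

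Differential expression was computed in R 4.3.3 with edgeR 4.0.16 (filterByExpr with a minimum of 10 counts, TMM, quasi-likelihood F-test, two-sided, no covariates, Benjamini-Hochberg adjustment, threshold 0.05). The labels gave no batch. Where nothing states separate litters or days, p-values measure the spread between these mice. CPM use TMM-scaled sizes, and log2 CPM a prior count of 1. Ratios and sums were compared by exact permutation over 24310 splits, and relations over 40320 or 362880 pairings. The floor of 3 counts per library covers counting error only. Near-identical genes were sought with BLAST 2.17.0 in the last 500 bases (at least 100 bases at 95%). Promoter sequences are from RefSeq, which matched 7 of the 8 genes, Slc39a14 being the other. Other settings tried were size factors of DESeq2, upper quartile scaling, total counts, the Wald test of DESeq2 1.42.0, other filters, thinning, removal of mitochondrial features, a replicate block and omission of each library. Tests of Mt3, Slc39a8 and the Mt1 and Mt2 sum were added after the data were seen. On simulated data for this comparison, with 200 genes drawn to go up or down by 1 (log2), 181 of 11479 genes tested were changed ones, 95.0% of them were called, and 4.97% of calls were unchanged genes. As many genes were drawn up as down and all others had equal means, whereas 69.5% of genes were called in the real data. The simulation therefore does not measure errors that come from scaling. Python 3.11.15, NumPy 2.4.6, pandas 2.3.3, SciPy 1.17.1, statsmodels 0.14.6 and Matplotlib 3.10.9 were used.

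The genes named in the text are the 8 themselves, the highest and lowest of each other list among genes tested, the zinc transporters that passed the threshold, and the 5 genes most like Mt2. A list gene that met this rule is not reported here. Named outside the rule, after their values were seen, were the zinc transporters without a call, Mt4, Ly6g, Nr3c1, Nfe2l2, Klf9, Fkbp5, Tsc22d3, Per1, genes that overlap a named one, and the genes most like Mt1, Slc39a1 and Slc39a14. Genes and lists were chosen with earlier results of these data known.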

Additional observations from a re-analysis of the deposited data

Results flagged for a closer look

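Among 22 groups of libraries checked for an outlying value, 1 stood out, and chance alone gives about 1 in 20. The Mt2 level of infarct zone replicate 3 was 190 CPM, whereas the next highest infarct zone library, replicate 9, reached 122 CPM. The gap was 0.546 of the range of the group. The same library held the highest share of Mt2 among Mt1 and Mt2 counts, 41.1%. The log2 fold change of Mt2 kept its direction and call in each of the 17 fits that left out 1 library, with values of 1.12 to 1.40. The cause was not tested.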

How the results depend on the processing

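Mt2 and Slc39a1 were called higher in each of 26 alternatives, with log2 fold changes of 1.12 to 2.37 and 1.33 to 2.46, and the Mt2 to Mt1 (1.79 to 1.98) and Mt2 to Slc30a1 (1.58 to 1.89) log2 ratios passed in each of 20. Scaling decided most of the rest. With total counts alone, the share of higher genes among calls went from 52.3% to 85.8%, 6 of the 8 genes were called higher and 0 lower, 11 other zinc transporters were called higher and 0 lower, and Mt1 (0.50), Slc30a1 (0.62), Mtf1 (0.82) and the sum of Mt1 and Mt2 (0.84) turned positive, while Slc39a14 (1.18) passed. Relative to the median of all genes, Mt1 was at -0.74 to -0.50 in 26 alternatives. A change of scaling moves all genes and their median together, so this range cannot check the choice of scaling. The count of the 8 genes called lower was 2 without a filter on low counts and 2 with the DESeq2 Wald test, where Mt3 joined Mt1 (Slc39a8 joined the genes called higher), and 1 to 2 when single libraries were left out. With a minimum mean of 50 counts, which tests fewer genes, 5239 genes were called against 8544, and 3 other zinc transporters were called higher and 1 lower.

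The Slc39a14 to Slc39a8 log2 ratio was -0.24 with a prior count of 5, -0.49 after thinning and -1.19 to -0.78 without single libraries. It lost its call in 9 of 20 alternatives, thinning among them (adjusted p = 0.221, exact permutation). Relations, none of which passed the threshold, changed sign in 5 cases: Mt2 with Slc30a1 in the infarct zone was 0.012 on total counts, Mt2 with Mtf1 in sham was -0.0086 on DESeq2 size factors, and without the 2 libraries farthest from the median the sham values of Mt2 with Slc39a14, Slc30a1 and Mtf1 were -0.43, -0.16 and -0.37. The cause was not tested. Samples with the same replicate number did not deviate together (correlations of -0.22 to 0.13, 1 of 8 best with its own number). The labels do not say what the numbers stand for. With the replicate number as a block 8079 genes were called and Mt1 was at -0.68. Counts of 0 to 9 limit Mt3 in both groups, and 1 to 6 counts limit Slc39a8 in sham.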

Other observations

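The genes most like Mt1 within groups, ranked as for Mt2 and examined after the values were seen, were Gm3839 (r = 0.88), Mrpl37 (r = 0.85), Ndufa12 (r = 0.84), Glul (r = 0.84) and Psmd11 (r = 0.84) over the 17 libraries. Mrpl37 is a mitochondrial ribosomal protein and Ndufa12 a subunit of respiratory complex I. Gm3839 was lower in the infarct zone by a log2 fold change of -1.21 (adjusted p = 1.49e-05, edgeR), Mrpl37 by a log2 fold change of -1.47 (adjusted p = 7.26e-09, edgeR) and Ndufa12 by -2.58 (adjusted p = 8.57e-09, edgeR). Within the infarct zone and within sham, the r was 0.92 and 0.33 for Mrpl37, and 0.88 and 0.52 for Ndufa12. For Gm3839, Glul and Psmd11 it was 0.87 to 0.94 within the infarct zone and 0.67 to 0.73 within sham. The summed cardiomyocyte markers spanned 1773 to 20815 CPM within the infarct zone, with replicate 1 at the top, and their part in these values was not tested.

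For Slc39a1 the closest gene was Cnpy2, at r = 0.93 over the 17 libraries, 0.92 in sham and 0.95 in the infarct zone. It was also higher in the infarct zone, from 50.1 CPM to 103 CPM (adjusted p = 5.18e-08, edgeR). For Slc39a14 the closest was Gss, glutathione synthetase, at r = 0.88.

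Of the remaining marker lists, 0 of 6 endothelial markers were higher and 2 lower, from Kdr at a log2 fold change of -1.70 to Emcn at -0.04 (summed 446 to 882 CPM in sham, 334 to 543 CPM in the infarct zone), 1 of 1 tested lymphocyte marker was higher (Cd79b, 2.25), and 2 of 6 smooth muscle and pericyte markers were higher and 3 lower, from Kcnj8 at -1.80 to Tagln at 2.79. On total counts alone 5 endothelial markers were higher and 1 lower. In the nerve and glia list S100b was at 0.38 (adjusted p = 0.272, edgeR).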
